A study of Mus musculus with 62 samples.

Results

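The slow myosin heavy and light chains were followed through the histone marks of mouse skeletal muscle. The set held 6 genes, Myh7, Myh6, Myh7b, Myl2, Myl3 and Myl6b, and a region belonged to it where the deposited lists named one of these genes as nearest. In the 16 lists of H3K27ac and H3K4me2 regions, 60 of 596282 regions were named for a member, 27 by H3K27ac and 33 by H3K4me2. In the 4 lists of differentially acetylated regions, 0 of 5334 were. Myh6 had no region in any of the 20 lists, so 5 of the 6 genes carry all the values below.

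H3K27ac (acetylation of histone H3 on lysine 27) marks active promoters and enhancers, and H3K4me2 (dimethylation on lysine 4) marks active and poised ones. Both were profiled by chromatin immunoprecipitation and sequencing in 8 groups of young adult male mice, all labelled C57BL/6, with 2 libraries per mark and group and a sequenced input as background. The groups Sol (soleus), Dia (diaphragm), EDL (extensor digitorum longus) and Quad (quadriceps) were muscles of wild-type sedentary mice. Sed and Ex were quadriceps of wild-type mice that stayed sedentary or ran voluntarily on a wheel. Wt and mTg were sedentary quadriceps, mTg from mice that overexpress Pgc1a (PGC1a, a coactivator of oxidative metabolism) from a muscle creatine kinase promoter and Wt from littermates. Each quadriceps library came from 1 animal, and several animals were pooled for each Sol, Dia and EDL library. The transgene is therefore driven in muscle fibers, whereas the tissue used was whole muscle, with all its cell types.

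Libraries held 11658746 to 24195147 tags for H3K27ac and 6405517 to 22731207 for H3K4me2. All 5 skeletal muscle markers (Acta1, Ckm, Des, Ryr1, Mb) had H3K27ac regions in every group, as did all 4 endothelial and all 4 fibroblast markers, so the marks of the fibers cannot be told apart from those of other cells where both carry a gene. Macrophage markers had regions for 3 to 4 of 4 genes, smooth muscle markers for 2 to 4 of 4, adipocyte markers for 1 to 2 of 3 (never Cidec) and Schwann cell markers for 0 to 2 of 3 (never Sox10). Heart markers had 1 to 4 of 5 genes with a region, and Nppa, which encodes the atrial natriuretic peptide, had none in any group. The labels of a pair of groups were doubtful for H3K4me2. Of 1828 regions listed as higher in mTg by H3K27ac, 63.8% overlapped an H3K4me2 region of the libraries labelled Wt and 20.8% one of the libraries labelled mTg, against 54.3% and 97.3% for H3K27ac. Of 844 regions listed as lower in mTg, 30.9% and 25.4% overlapped an H3K4me2 region of these libraries, in the order of the labels, against 99.6% and 27.1% for H3K27ac. The H3K4me2 lists differed in length (46944 regions labelled Wt and 27527 labelled mTg), and mTg replicate 1 had the fewest tags of the H3K4me2 libraries. The part of length and depth in these shares was not tested. H3K4me2 results of these libraries are therefore given by their labels, without a direction.

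Myosin is the motor of the contractile filament. A heavy chain carries the ATPase and sets how fast a fiber shortens, and each heavy chain holds an essential and a regulatory light chain. Slow, oxidative fibers, which resist fatigue and are abundant in the soleus, use the heavy chain Myh7 (beta-cardiac myosin) with the regulatory chain Myl2 and the essential chain Myl3, all 3 shared with the heart ventricle. Myh6 (alpha-cardiac myosin) lies head to tail with Myh7 and is mainly a heart gene, Myh7b is an ancient slow-type heavy chain, and Myl6b is an essential chain of slow muscle and other tissues. Myh6, Myh7 and Myh7b each carry an intronic microRNA, miR-208a, miR-208b and miR-499. The 3 mature microRNAs are shown because they share most of their seed (bases 2 to 8, in capitals), which was identical in the 2 miR-208 members and not in miR-499. Sequences are those of RefSeq, assembly GRCm38.p6 (mm10).
miR-208a-3p: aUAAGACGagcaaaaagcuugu
miR-208b-3p: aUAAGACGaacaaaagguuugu
miR-499-5p: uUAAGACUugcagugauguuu

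The promoters of the 4 members whose starts carried H3K27ac in Sol and Dia but in none of the Sed, Ex, Wt and mTg lists are printed next, from 250 bases before to 50 bases after the start, on the strand of the gene. Capitals mark matches on either strand to a MEF2 site (C or T, then TA, a run of A or T, TA, and A or G), a CArG box (CC and GG around a run of A or T, bound by serum response factor), the MCAT element CATTCC (bound by TEAD factors), the E-box CAGCTG (bound by MyoD family factors), the estrogen-related receptor site TCAAGGTCA and the TATA box TATAAA. They lie at chr14:54994577-54994876 on the minus strand (Myh7, at the outermost RefSeq start, 54994626), chr2:155610993-155611292 (Myh7b), chr5:122100730-122101029 (Myl2, at the start that the lists use) and chr9:110763428-110763727 (Myl3).
Myh7: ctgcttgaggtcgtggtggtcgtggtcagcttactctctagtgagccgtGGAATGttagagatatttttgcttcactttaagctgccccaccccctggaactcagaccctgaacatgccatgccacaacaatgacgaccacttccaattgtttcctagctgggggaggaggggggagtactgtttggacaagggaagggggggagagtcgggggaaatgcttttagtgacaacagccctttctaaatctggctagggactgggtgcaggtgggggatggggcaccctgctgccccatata
Myh7b: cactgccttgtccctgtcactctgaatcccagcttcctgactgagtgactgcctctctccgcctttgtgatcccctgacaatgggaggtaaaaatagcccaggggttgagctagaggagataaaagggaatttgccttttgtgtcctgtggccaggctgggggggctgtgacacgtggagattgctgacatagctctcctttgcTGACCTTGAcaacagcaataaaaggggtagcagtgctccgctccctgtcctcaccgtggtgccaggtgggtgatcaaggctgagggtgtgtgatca
Myl2: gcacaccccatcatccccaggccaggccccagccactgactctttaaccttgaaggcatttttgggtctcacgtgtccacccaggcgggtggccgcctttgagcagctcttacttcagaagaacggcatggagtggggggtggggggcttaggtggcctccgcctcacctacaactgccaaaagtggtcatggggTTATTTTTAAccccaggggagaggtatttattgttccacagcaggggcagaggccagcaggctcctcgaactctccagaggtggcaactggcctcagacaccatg
Myl3: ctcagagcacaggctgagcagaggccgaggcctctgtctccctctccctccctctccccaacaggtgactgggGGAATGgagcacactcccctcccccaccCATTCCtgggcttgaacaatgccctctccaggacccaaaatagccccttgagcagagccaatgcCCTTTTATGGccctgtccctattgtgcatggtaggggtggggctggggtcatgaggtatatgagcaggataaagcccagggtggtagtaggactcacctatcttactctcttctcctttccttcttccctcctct
The Myh7 promoter held 1 MCAT element, the Myl3 promoter 2 MCAT elements and 1 CArG box, the Myh7b promoter 1 estrogen-related receptor site, and the Myl2 promoter 1 MEF2 site. For Myh7 the lists use the start at 54994549, whose promoter (chr14:54994500-54994799) held no MCAT element. Among 32817 RefSeq promoters of the same length, 14.7% held an MCAT element, 1.63% a CArG box, 0.424% an estrogen-related receptor site, 16.3% the E-box, 13.6% the TATA box and 3.19% a MEF2 site. A match is a description of the letters and not evidence of binding.

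The slow myosin genes carried the widest H3K27ac in Sol, less in Dia, and little in the other muscles. Their regions covered 37.0 kb in Sol (9 regions) and 24.4 kb in Dia (8 regions), against 5.16 kb in Quad (3 regions) and 2.82 kb in EDL (2 regions). The other quadriceps groups held 1.83 kb in Ex, 1.57 kb in Wt, 1.05 kb in Sed and 0.819 kb in mTg. H3K4me2 also covered most in Sol, with 29.1 kb in 11 regions, but in Dia it covered only 4.25 kb in 4 regions, next to 4.45 kb in EDL, 3.97 kb in Quad and 2.59 to 3.29 kb in the remaining groups. Over the same lists, the H3K27ac regions of 5 fast chains (Myh1, Myh2, Myh4, Myl1, Mylpf) covered 55.4 kb in Sol, 65.9 kb in Dia, 85.5 kb in EDL and 63.0 kb in Quad, with all 5 genes marked in each group. Covered length depends on how many regions a list calls, and the H3K27ac lists held 33106 to 49010 regions, with Sol (34173) and Dia (33106) near the low end. A gene without a region by name was below the authors' threshold over input or lay under a region named for a neighbour. It is not shown to lack the mark. The Dia total holds 4.57 kb named for Myl6b, whose start in Sol, EDL and Quad lay under H3K27ac regions named for A430046D13Rik and not counted here.

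**Figure D1:**
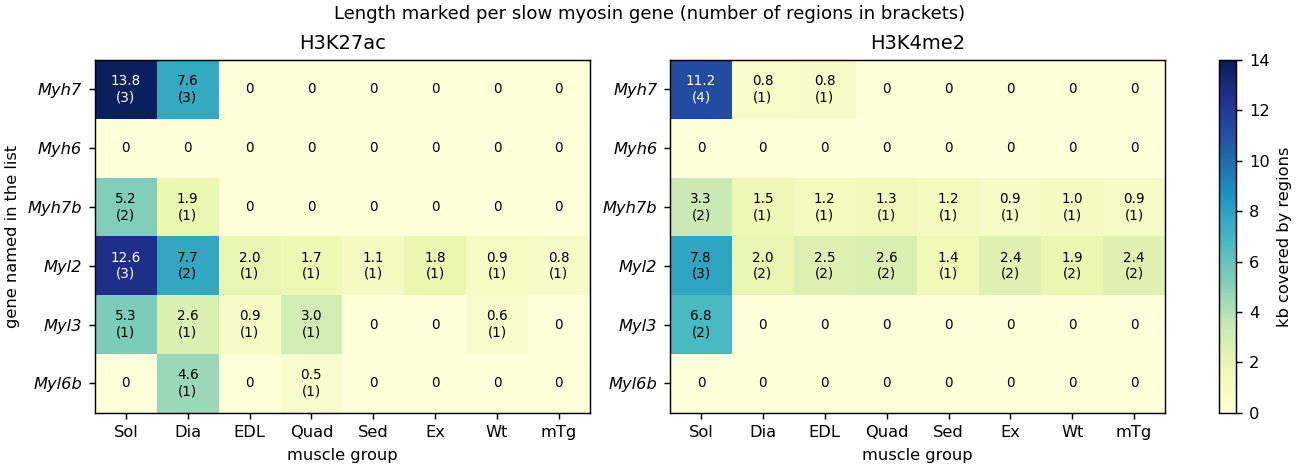
Length in kb covered by regions named for each slow myosin gene (rows) in each of the 8 groups (columns), for H3K27ac on the left and H3K4me2 on the right, with the number of regions in brackets and darker color for more kb. Myh7 covered 13.8 kb of H3K27ac in Sol and 7.58 kb in Dia and had no H3K27ac region in the 6 other groups, whereas Myl2 had at least 1 region in all 16 lists.

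Levels are log2 tag values as deposited, normalized within each list, so that values of 2 groups are on separate scales. To set a region against the rest of its own list, its mean level was divided by its width (log2 level per kb) and given as a percentile of all regions of that list. Where a pair of groups shared a region, matched by an overlap of at least 50% of each, the difference in level per kb was centred on the median over all shared regions, which by itself lay between -0.42 and 0.46. A region was called over 2-fold apart where the centred difference passed 1 on the log2 scale and the libraries of the 2 groups did not overlap. As an alternative, the input level of the whole region was subtracted from the level per kb. Width was divided out of the level only, so this lowers wider regions more and cannot isolate the input. Level over input is the mean level minus the input level of the same region, neither divided by width. With 2 libraries against 2 an exact two-sided permutation test cannot give a p below 0.333, and the lists were normalized separately, so no p is given for these differences.

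Myh7, the slow heavy chain on chr14 (54970684 to 54994626, minus strand), was marked by H3K27ac in Sol and Dia only among the 8 lists. In Sol an 8.36 kb region (54991466 to 54999824) lay across its start, with levels of 9.68 and 9.41 in the 2 libraries and 6.33 in the input, at percentile 71.9. A second wide region (55002072 to 55007046) was centred 10.01 kb upstream, with levels of 9.08 and 8.85, at percentile 77.1. Between them sat a weak region of 0.5 kb with levels of 3.23 and 2.72, at percentile 0.594. Both wide regions thus stood in the upper part of the Sol list, and together the 3 regions covered 13.8 kb of a 15.6 kb stretch.

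In Dia the same stretch was broken into 3 narrower and weaker regions. The region over the start (54993043 to 54995551) had levels of 6.41 and 6.56, at percentile 13.6. The region 2.66 kb upstream (54996134 to 54998286) had levels of 6.80 and 6.91, at percentile 31.9, and the distal region (55003318 to 55006238) had 6.74 and 6.87, at percentile 16.4. All 3 were in the lower part of the Dia list. The distal region was the only one of Myh7 shared by Sol and Dia under the matching rule, and its level per kb was 1.82 higher in Sol on the centred log2 scale, or 3.52-fold, with the libraries apart. The input level there was also higher in Sol, 6.05 against 4.68, over regions of 4.97 and 2.92 kb. Level over input was 2.91 in Sol and 2.12 in Dia. With the whole-region input subtracted from the level per kb, which mixes units, the difference was 0.05 and not called. The part of the input in the difference was not tested.

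H3K4me2 gave Myh7 4 regions in Sol, 1 in Dia and 1 in EDL. The Sol regions ran from 54984772 to 54999361 at percentiles of 3.51 to 25.7, all in the lower part of their list, and left a gap of 2.20 kb (54993038 to 54995233) in which the start lies. The Dia region (54996936 to 54997697; levels of 4.59 and 4.57) was at percentile 13.6. The EDL region (55002167 to 55002953; levels of 4.52 and 4.47) lay 8.01 kb upstream, at percentile 7.27, and was the only region of Myh7 by either mark outside Sol and Dia.

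**Figure D2:**
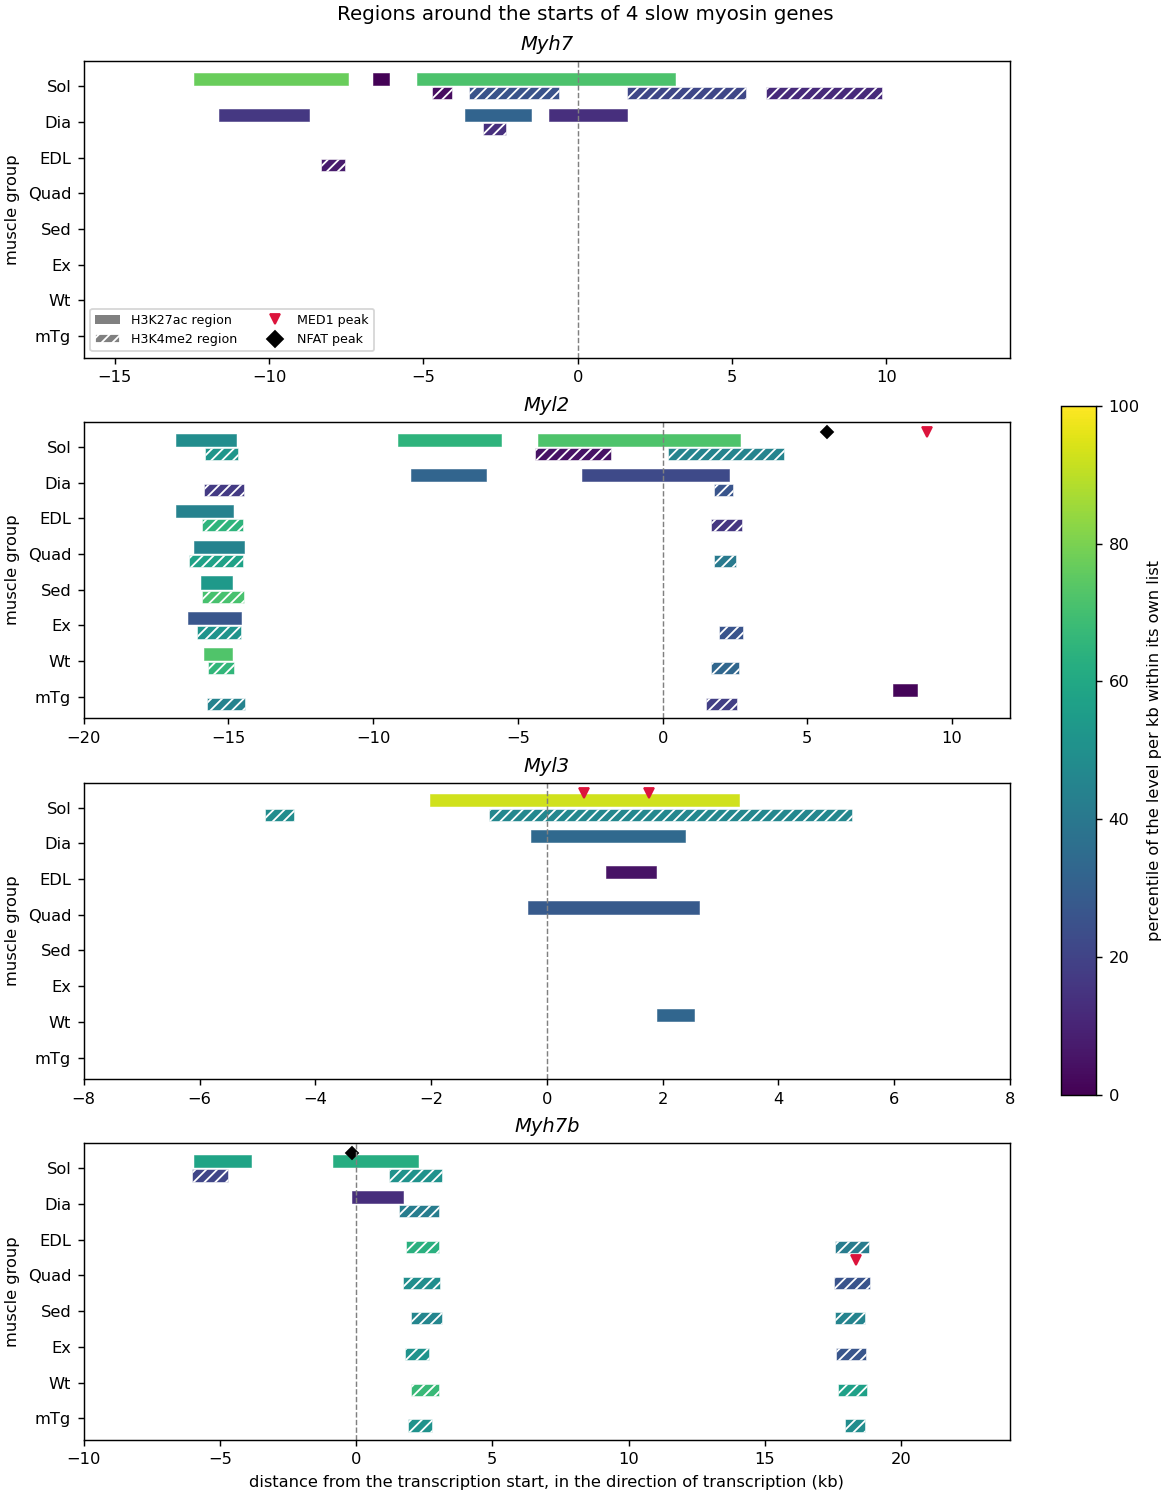
Regions of the 8 groups (rows) around the starts of Myh7, Myl2, Myl3 and Myh7b, by distance from the start in kb along the direction of transcription. Plain bars are H3K27ac and hatched bars H3K4me2, color is the percentile of the level per kb within its own list, and symbols are the MED1 and NFAT peaks described in the text. H3K27ac over the start is seen in Sol and Dia at each of these genes and in Quad at Myl3 alone. The region 15.3 kb upstream of Myl2 is seen in 14 of 16 lists.

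Myh6, the heart heavy chain next to Myh7 (chr14, 54941921 to 54968017), had no region by name and none over its start by either mark. Its promoter held 1 MCAT element and a TATA box. On the far side of Myh7, the neighbour Ngdn had an H3K27ac region in 7 of 8 groups (all but Quad), at percentiles of 80.1 to 99.1, and Cmtm5, beside Myh6, had none.

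Myh7b, on chr2 (155611243 to 155634307, plus strand), was marked by H3K27ac in Sol and Dia and by H3K4me2 in every group. In Sol, H3K27ac covered the start (155610406 to 155613516; levels of 7.92 and 7.77, percentile 62.2) and a site 4.92 kb upstream (155605277 to 155607378; levels of 7.28 and 7.09, percentile 58.5). In Dia only the start was marked (155611079 to 155612956), with levels of 6.00 and 6.09, at percentile 13. The shared start region was 1.5 higher in Sol on the centred log2 scale per kb, or 2.82-fold, with the libraries apart. The input levels over the whole regions were 5.22 in Sol and 4.09 in Dia, and level over input was 2.62 and 1.95. With the whole-region input subtracted from the level per kb the difference was -0.03 and not called. That value mixes units, and no direction is read from it.

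The H3K4me2 region of Myh7b lay within the gene, around its exon 4 and some 2.18 to 2.58 kb after the start, and was listed in all 8 groups at percentiles of 42.1 (Dia) to 67.5 (labelled Wt). Its levels were 6.94 and 7.04 in Sol, 6.46 and 6.52 in Dia, 6.89 and 6.79 in EDL, and 6.12 and 6.20 in Quad. Its centred differences between groups were small, from -0.31 for Dia minus EDL to 0.43 for EDL minus Quad, and none was over 2-fold. Level over input was 2.44 in Sol, 2.79 in Quad and 2.89 in EDL. With the whole-region input subtracted from the level per kb, Sol minus Quad went from 0.24 to -1.05 and was called. Sol minus EDL then went from -0.16 to -0.91. These 2 values mix units, and nothing is read from them. Sol alone had a further H3K4me2 region 5.36 kb upstream (155605216 to 155606543; levels of 5.77 and 5.50, percentile 21), which overlaps its upstream H3K27ac region.

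The distal part of Myh7b, downstream of the miR-499 hairpin, showed the reverse arrangement of groups. An H3K4me2 region over exon 29 of 42, named for Mir499 in the lists and so outside the 60, was present in EDL (percentile 41.6), Quad (26), Sed (45.0), Ex (26.6), and the libraries labelled Wt (57) and mTg (48.5), and absent from the Sol and Dia lists. In Quad its levels were 5.21 and 5.60, and in EDL 6.37 and 6.08. The only H3K27ac region named for Mir499 was in Sol, within an intron of a neighbouring gene (levels of 5.91 and 5.42, percentile 18.9). Mir208a and Mir208b had no region by name.

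Myl2, the slow regulatory light chain on chr5, was the member with regions in all 16 lists, 11 regions by H3K27ac and 16 by H3K4me2. H3K27ac lay in 3 main places, over the start and at a pair of sites upstream of it. The start that the lists use is at 122100980, and RefSeq also places starts at 122092724 and 122093189. H3K27ac over the start was found in Sol and Dia only. In Sol the region was 6.97 kb wide (122096689 to 122103659), with levels of 9.43 and 9.15, at percentile 72.0. In Dia it was 5.10 kb wide (122098193 to 122103289), with levels of 7.95 and 7.69, at percentile 22.5. The difference per kb was 1.44 on the centred log2 scale, or 2.71-fold higher in Sol with the libraries apart. Level over input was 3.25 in Sol and 2.23 in Dia (input levels of 6.04 and 5.59). With the whole-region input subtracted from the level per kb, which mixes units, the difference was 0.60 and not called.

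A second H3K27ac region of Sol and Dia lay 7.37 to 7.41 kb upstream, over both upstream starts. Its levels were 8.38 and 7.85 in Sol (122091832 to 122095395, percentile 64.8) and 6.98 and 7.28 in Dia (122092276 to 122094866, percentile 32.1). The libraries did not overlap, and the centred difference of 0.95 was just under the 2-fold limit.

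The third place, 15.3 kb upstream, was shared by fast and slow muscles. It had H3K27ac in 6 groups and H3K4me2 in all 8, and the bases common to these 14 regions are chr5:122085258-122086089. Its H3K27ac levels were 7.18 and 6.65 in Sol, 7.16 and 6.74 in EDL, and 6.46 and 6.00 in Quad, at percentiles of 48.7, 44.2 and 44.7. They were 6.12 and 6.29 in Sed, 6.45 and 6.06 in Ex, and 5.57 and 5.65 in Wt, at percentiles of 53.9, 26.7 and 72.3. Dia and mTg had no H3K27ac region there. In mTg the only H3K27ac region named for Myl2 was a weak one 8.38 kb past the start, with levels of 3.83 and 2.58 at percentile 1.2, inside an exon of a neighbouring transcript.

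Between muscles, H3K27ac at this distal region differed little, by 0.34 for Sol minus Quad, 0.15 for Sol minus EDL and 0.18 for EDL minus Quad, with overlapping libraries in all 3 pairs. With the whole-region input subtracted from the level per kb, which mixes units, they were -0.53 with the libraries apart, -0.20 and -0.33. Level over input was 1.89 in Sol, 2.21 in EDL and 2.08 in Quad. Leaving out 1 library moved Sol minus Quad from 0.07 (without Sol replicate 1) to 0.62 (without Sol replicate 2). It also turned Sol minus EDL (-0.11 without Sol replicate 1 and -0.08 without EDL replicate 2) and EDL minus Quad (-0.07 without EDL replicate 1 and -0.06 without Quad replicate 2), so no direction is read from them. H3K4me2 there was lowest in Dia. Its levels were 5.41 and 5.76 in Dia (percentile 17.5), 6.31 and 6.27 in Sol (52.6), 7.12 and 7.18 in EDL (65.2), and 6.92 and 6.88 in Quad (57.4). The centred differences were -1.19 for Dia minus EDL, -1.004 for Dia minus Quad and 1.03 for Sol minus Dia, all called over 2-fold with the libraries apart, and all near the limit. With the whole-region input subtracted from the level per kb, which mixes units, they were -0.37, -0.12 and 0.25 and not called. Level over input was 2.07 in Dia, 2.87 in EDL, 2.58 in Quad and 2.19 in Sol. Leaving out Dia replicate 1 or Quad replicate 1 ended the Dia and Quad call, and leaving out Sol replicate 1 or Dia replicate 1 ended the Sol and Dia call.

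The middle 300 bases of this distal region (chr5:122085523-122085822, plus strand) are printed because the region joins the lists of nearly all groups. No match to the motifs marked in the promoters was found in them, so they stand in lower case.
Myl2 distal region: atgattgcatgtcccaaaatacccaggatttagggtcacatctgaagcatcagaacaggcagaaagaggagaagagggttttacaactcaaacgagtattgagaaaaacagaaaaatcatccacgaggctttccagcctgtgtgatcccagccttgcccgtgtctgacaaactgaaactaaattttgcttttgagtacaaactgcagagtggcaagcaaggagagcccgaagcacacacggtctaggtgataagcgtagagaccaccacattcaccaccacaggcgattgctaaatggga

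H3K4me2 also marked intron 3 of Myl2 in 7 groups (all but Sed). In Sol this region was 4.01 kb wide (122101171 to 122105177), with levels of 7.79 and 7.95 at percentile 45.2. In the others it was 0.628 to 1.08 kb wide, at percentiles of 15.9 (EDL) to 40.8 (Quad). Its difference was 0.60 for Dia minus EDL and -0.70 for EDL minus Quad, with the libraries apart and neither over 2-fold. Sol had a further H3K4me2 region 3.10 kb upstream of the start (122096566 to 122099194; levels of 5.73 and 6.22, percentile 4.91).

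Myl3, the slow essential light chain on chr9 (110763678 to 110769802, plus strand), had the highest relative H3K27ac among the regions named for a member. In Sol a 5.34 kb region (110761664 to 110767003) covered the start and intron 1, with levels of 9.85 and 9.59 against 6.07 in the input, at percentile 92.6. The region was narrower and lower in rank in Dia (110763412 to 110766060; levels of 7.19 and 7.22, percentile 33.6) and in Quad (110763360 to 110766314; levels of 6.61 and 6.43, percentile 28.0). Only intron 1 was marked in EDL (110764698 to 110765563; levels of 4.77 and 4.26, percentile 4.75) and Wt (110765587 to 110766215; levels of 3.79 and 3.86, percentile 32.5). Sed, Ex and mTg had no H3K27ac region.

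Sol and Quad shared the Myl3 region, and its level per kb was 2.28 higher in Sol on the centred log2 scale, or 4.86-fold, with the libraries far apart. The input levels were 6.07 in Sol and 4.39 in Quad, over regions of 5.34 and 2.95 kb, and level over input was 3.65 and 2.13. With the whole-region input subtracted from the level per kb, which mixes units, the difference was 0.61 and not called. The overlap of the 2 regions was 55.3%, so the pair was also lost when an overlap of 80% was asked for. Dia minus Quad gave 0.38 for the same region, not over 2-fold. H3K4me2 was listed at Myl3 in Sol only, as a 6.27 kb region over the gene (110762676 to 110768946; levels of 8.36 and 8.73, percentile 46.1) and a 0.5 kb one 4.62 kb upstream (levels of 4.97 and 4.94, percentile 48.4).

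Myl6b, an essential light chain on chr10 (128494157 to 128498685, minus strand), was marked at its start in fast and slow muscles, in more groups than any other member. By name it had 2 H3K27ac regions, 4.57 kb over its start in Dia (levels of 9.33 and 9.29, percentile 75.4) and 0.5 kb within the gene in Quad (levels of 3.35 and 3.55, percentile 13.1). By position its start base (128498685) lay under an H3K27ac region in 6 groups (all but Wt and mTg), at percentiles of 75.4 to 93.8. It lay under an H3K4me2 region in 7 (all but the libraries labelled Wt), at percentiles of 65.0 to 87.5. The groups left out were not unmarked there. The adjacent upstream bases chr10:128498740-128498934 overlapped regions of both marks in all 8 groups. Most of these regions were named for the non-coding gene A430046D13Rik, whose start (128499247) faces that of Myl6b, or for the adjacent Myl6. The signal of these head-to-head genes cannot be separated.

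**Figure D3:**
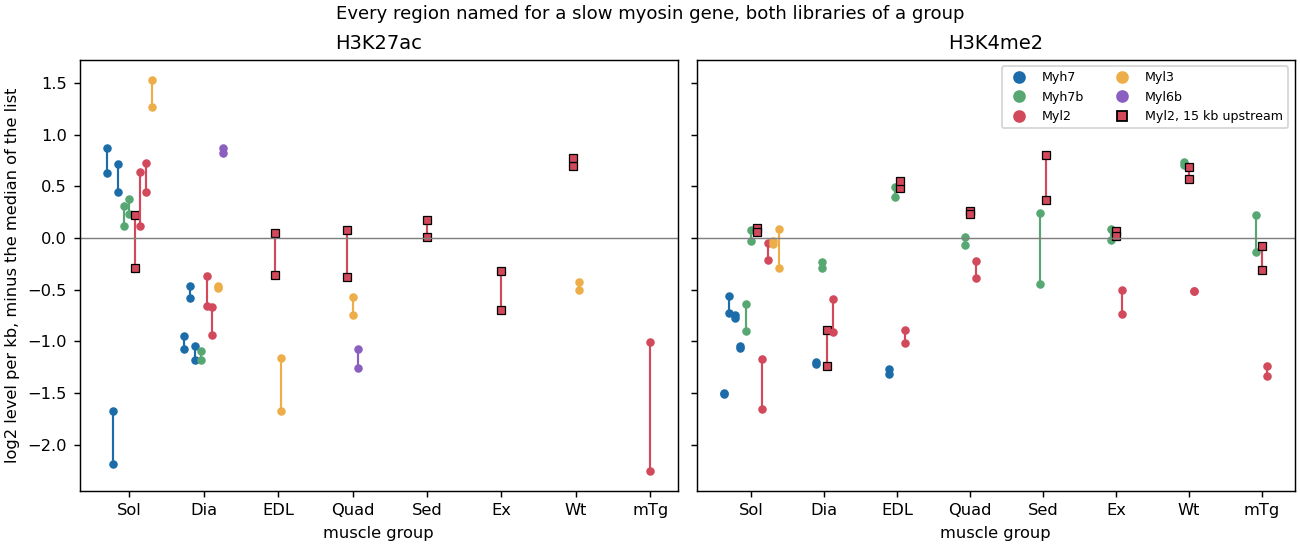
Log2 level per kb of each of the 60 regions minus the median of its list, with both libraries of a group joined by a line, for H3K27ac (left) and H3K4me2 (right) in the 8 groups. In Sol most H3K27ac regions lie above the list median of 0 and in Dia all but that of Myl6b lie below it. Black-edged squares are the Myl2 region upstream.

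The starts of the slow myosin genes often carried H3K27ac without a listed H3K4me2 region. This held in Sol for 5 of the 7 member starts under H3K27ac (those of Myh7, Myh7b and Myl2), where 6.81% of all annotated starts under H3K27ac lacked H3K4me2. In Dia it held for 6 of 7 (the same genes and Myl3), where the share over all starts was 10.4%. Starts of the same gene lie near each other and are not independent. In Sol, H3K4me2 regions flanked the Myh7 start and the Myl2 start that the lists use (122100980) on both sides rather than covering them. That Myl2 start is not among those counted, which for Myl2 were the upstream ones at 122092724 and 122093189.

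Pairs of groups were then compared over all slow myosin regions. Of the 9 Sol regions by H3K27ac, 7 had no overlapping region in Quad and 7 had none in EDL, against 22.4% and 20.9% of all Sol regions. Of the 8 Dia regions, 6 had none in Quad and 6 had none in EDL, against 22.2% and 20.9% of all Dia regions. By H3K4me2, 8 of 11 Sol regions had no overlap in Quad and 8 had none in EDL (20% and 14.9% of all Sol regions), whereas 1 of 4 Dia regions had none in Quad and 1 had none in EDL (17.7% and 13.1% of all Dia regions). These shares lay well above those of all regions for both marks in Sol and for H3K27ac in Dia, and near them for H3K4me2 in Dia. By H3K27ac the 7 Sol and the 6 Dia regions without overlap all came from Myh7, Myh7b and Myl2. By H3K4me2 those of Sol came from Myh7, Myh7b, Myl2 and Myl3. Regions of the same gene lie near each other and are not independent, so the shares describe a few loci. The Sol and Dia counts use the same Quad and EDL lists and are not independent of each other.

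**Figure D4:**
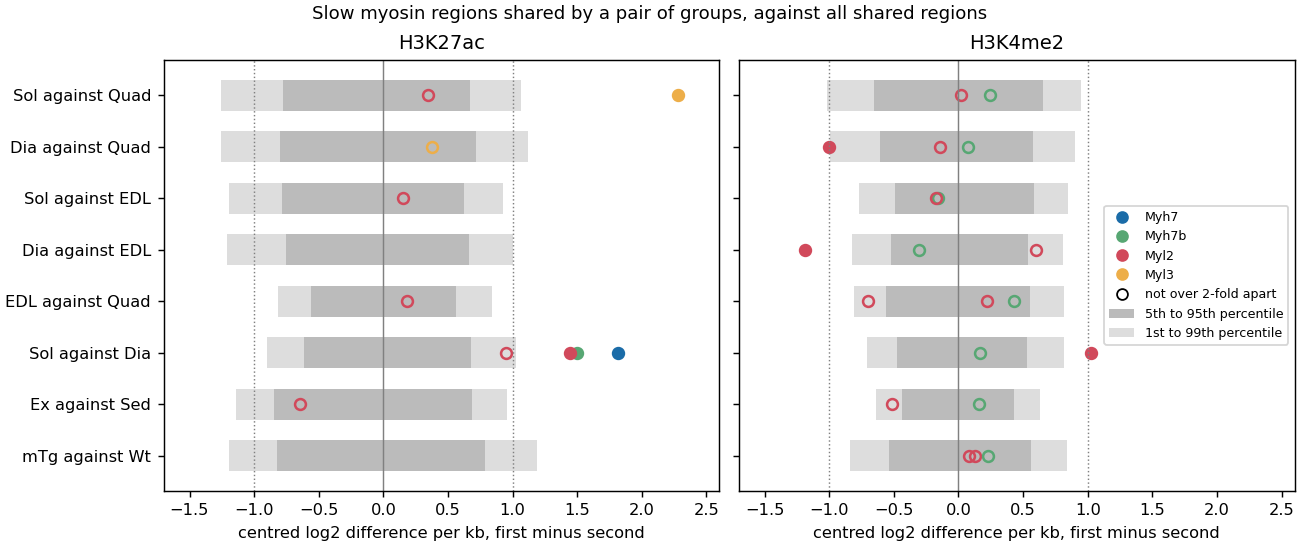
Centred log2 difference per kb (first group minus second) of slow myosin regions shared by each pair of groups, for H3K27ac (left) and H3K4me2 (right). Filled points are over 2-fold apart with libraries that do not overlap, open points are not, dotted lines mark 2-fold, and dark and light grey bars span the 5th to 95th and the 1st to 99th percentile of all shared regions. All 7 filled points lie outside the light bars, 4 by H3K27ac (Myl3 in Sol against Quad at 2.28 and 3 points of Sol against Dia) and 3 by H3K4me2.

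Regions that were shared by a pair were few, because most Sol and Dia regions had no counterpart. For Sol against Quad, 1 of 2 shared H3K27ac regions was over 2-fold apart (Myl3), where 3.74% of all shared regions were, and 0 of 2 by H3K4me2 (1.88% of all). For Dia against Quad the counts were 0 of 1 (4.26% of all) and, by H3K4me2, 1 of 3 (1.58%). For Sol against EDL they were 0 of 1 (2.88%) and 0 of 2 (0.626%). For Dia against EDL no H3K27ac region was shared, and 1 of 3 was apart by H3K4me2 (0.678%). EDL and Quad, the fast muscles, had 0 of 1 apart by H3K27ac (0.644%) and 0 of 3 by H3K4me2 (0.453%).

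The contrast of Sol with Dia gave the most calls, 3 of 4 shared H3K27ac regions (Myh7, Myh7b and Myl2, all higher in Sol), where 1.65% of all shared regions were over 2-fold apart. By H3K4me2 it gave 1 of 2, the Myl2 region 15.3 kb upstream, where 0.439% of all were. Sol regions of these genes were wider than those of Dia in the called H3K27ac pairs (4.97 against 2.92 kb at Myh7, 3.11 against 1.88 kb at Myh7b, 6.97 against 5.10 kb at Myl2). Dividing by width lowers the difference in such pairs. Leaving it out raised all 3 differences, so that the 3 calls stood is no check of them. With the whole-region input subtracted from the level per kb, or with an overlap of 80% asked for, 0 of the H3K27ac calls of Sol against Dia remained. The input alternative lowers the wider Sol regions more, so it cannot decide whether these calls depend on the input.

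No slow myosin region was listed as changed by voluntary running or by the Pgc1a transgene. Neither contrast had a slow myosin region among its differentially acetylated regions, 2662 for Ex against Sed and 2672 for mTg against Wt. Of the 2 H3K27ac regions of the set in Ex and Sed, 0 overlapped a differential region, against 5.77% of all regions of these lists, and of the 3 in mTg and Wt 0 did, against 4.66%. These lists were selected by the authors for passing a test of the same contrast. A limma fit on their 4 libraries accordingly gave an adjusted p under 0.05 to 99.7% (Ex against Sed) and 100% (mTg against Wt) of them, from which nothing is read here.

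Among shared regions, the Myl2 region 15.3 kb upstream was 0.65 lower in Ex than in Sed by H3K27ac on the centred log2 scale per kb (a difference of -0.65). The count over 2-fold was 0 of 1, against 3.17% of all shared regions. The Ex region was 1.83 kb wide and the Sed region 1.05 kb, and without division by width the difference was 0.21, so its direction depends on that step. By H3K4me2 the same region gave -0.51, with the libraries apart, and Myh7b gave 0.16 with overlapping libraries. Neither was over 2-fold, where 0.0925% of all shared regions were. For the H3K4me2 libraries labelled mTg and Wt, the differences (first minus second) were 0.08 and 0.13 at Myl2 and 0.23 at Myh7b, and 0 of 3 were over 2-fold (0.724% of all). No H3K27ac region of the set was shared by mTg and Wt, since the regions of Wt were at the distal Myl2 site and in Myl3 intron 1 and that of mTg elsewhere.

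MED1 is a subunit of the Mediator complex, which links enhancers to RNA polymerase, and NFAT is the calcineurin-activated factor linked to slow fiber genes. Each was profiled in 1 library of pooled muscle per tissue, without replicates, so the peaks are described and not compared by a test. Of 4070 Sol MED1 peaks, 4 were named for a member (3 are described here), and of 2145 Dia, 834 EDL and 3593 Quad MED1 peaks 0 were. In Myl3 intron 1, peaks at chr9:110764218-110764428 (score 9.94, percentile 88.8) and chr9:110765330-110765540 (score 11.1, percentile 92.1) lay inside the Sol H3K27ac region. The peak of Myl2 (chr5:122110015-122110225, score 22.2, percentile 97.5) lay 9.17 kb past the start and in no histone region. Scores are tags per peak as scaled by the authors' peak caller.

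The first of the Myl3 windows inside H3K27ac is printed, on the plus strand, that of the gene. Capitals here mark the motifs listed for the promoters and also the NFAT core GGAAA.
Myl3 MED1 peak: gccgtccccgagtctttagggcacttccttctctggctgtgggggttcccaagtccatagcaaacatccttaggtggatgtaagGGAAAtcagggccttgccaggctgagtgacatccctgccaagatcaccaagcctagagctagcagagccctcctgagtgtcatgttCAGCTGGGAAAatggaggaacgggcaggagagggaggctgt
The window held 1 E-box and 2 NFAT cores, next to each other in the case of the E-box and the second core. Among all Sol MED1 peaks, 11% held the E-box and 46.2% the NFAT core.

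NFAT peaks numbered 39661 in Sol and 485 in Quad, so the 2 lists differ greatly in size. Of the Sol peaks 2 were named for a member and of the Quad peaks 0. The peak of Myh7b (chr2:155610995-155611197, score 12.3, percentile 9.79) lay 0.147 kb before the start and within the promoter printed above. It was inside the H3K27ac region of Sol and across the edge of that of Dia. It held no GGAAA, which 52.5% of all Sol NFAT peaks held. The peak of Myl2 (chr5:122106565-122106767, score 14.3, percentile 59.1) lay 5.71 kb past the start in no histone region. A further Sol NFAT peak inside the body of Myh7 was named for Mhrt, a non-coding transcript of the same locus. In Quad, a MED1 peak (chr2:155629498-155629708, score 6.39) lay in the H3K4me2 region over exon 29 of Myh7b, where Sol and Dia had none. Open chromatin of control quadriceps, 44911 ATAC-seq peaks called on 3 pooled libraries, had a peak inside the H3K4me2 region of Myh7b shared by all 8 groups (chr2:155613481-155613675, 5.70 tags) and one at the start of Myl6b (chr10:128498740-128498934, 27.1 tags), but none at the starts of Myh7, Myl2 and Myl3.

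Other genes of slow fibers were marked in all muscles more often than the myosin chains. Of 8 partners (Tnni1, Tnnt1, Tnnc1, Tpm3, Atp2a2, Casq2, Myoz2, Csrp3), 8 had an H3K27ac region in Sol and in Dia and 6 to 7 in the other groups. Tnnc1, the slow troponin C, had one only in Sol (percentile 86.9) and Dia (67.6). For Sol against EDL, 2 of 9 shared regions were over 2-fold apart, both higher in Sol, at Atp2a2 (1.36), the slow calcium pump, and Myoz2 (1.33), a Z-disc protein. For Sol against Quad 1 of 8 was, a region of Myoz2 lower in Sol (-1.11). The shares over all regions are those given for these pairs above.

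Fast chains gave calls in the other direction. Sol regions were over 2-fold lower at 2 of 8 regions shared with Quad, in Myh1 (-1.999), the fast heavy chain 2X, and Myl1 (-1.14), the fast essential light chain. They were lower at 3 of 9 regions shared with EDL, all of Myl1, and at 1 of 8 shared with Dia (Myl1, -1.32). In Ex against Sed, 1 of 4 was lower in Ex (Myl1, -1.64). Of the kinases and myosin-binding genes by H3K27ac, Sol against Quad gave 2 calls in 9 shared regions, Sol against EDL 1 in 11, Dia against Quad 1 in 12, EDL against Quad 1 in 11, Ex against Sed 1 in 8 and mTg against Wt 1 in 15 (4.64% of all shared regions in this last pair), all lower in the first group, and Sol against Dia gave 0 in 14 and Dia against EDL 0 in 12. Mylk2, the skeletal light chain kinase that phosphorylates regulatory light chains, was called in Sol against Quad (-1.41), Sol against EDL (-1.34) and mTg against Wt (-1.24), and Mybph in Dia against Quad (-1.73) and EDL against Quad (-1.18). Embryonic and other chains (Myh3, Myh8, Myh13, Myl4, Myl6, Myl7) had H3K27ac regions for 1 to 3 of 6 genes in a group and shared at most 1 in any pair, too few to compare.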

How the data were processed

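Histone tags were aligned by the authors with Bowtie (version 1.2 per the labels) to mm10, and regions over input were called and annotated with HOMER and DESeq2. The deposited lists hold log2 values per library and input, taken as regularized log2 tag values normalized within each list. They also hold the authors' log2 fold over input with its adjusted p-value, used here only as alternative thresholds. MED1 and NFAT lists hold the authors' peak score, and the ATAC list deposited coverage as a tag signal per peak. The 5 ATAC interval and footprint files were not used, because their build is not given in the sources used here.

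Regions were assigned by the deposited gene name. Every member is described in every list. From other gene lists up to 4 genes are named, those with the largest called difference or otherwise the highest percentile. The 5 genes nearest to Myh7 and Myl2 by percentile profile are also named. Members and lists were chosen with earlier results of these data known. Replicates are separate biological libraries of a group. Differential lists were fitted with limma 3.58.1 (R 4.3.3) with Benjamini-Hochberg adjustment, and the rest was computed with Python 3.11.15, numpy 2.4.6, pandas 2.3.3, pysam 0.24.0 and matplotlib 3.10.9. A MED1 peak is not reported here. Scripts were tested on simulated data. Alternatives were a stricter overlap (80%), stricter thresholds (adjusted p under 0.001, 4-fold over input), subtraction of the whole-region input from the level per kb, no division by width, no centring, assignment by gene body, omission of each library, and the replicate number as a block.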

Additional observations from a re-analysis of the deposited data

How the results depend on the processing

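Of the 20 counts that answer a comparison, 13 were 0, with few or no slow myosin regions to compare, so that their stability says little. For the 7 counts above 0, 40 of 61 alternatives left the count within 1.5 times its value and 21 moved it, and 3 alternatives moved a count of 0. The 40 include the replicate block for pairs of groups, which could not lower a count. Subtracting the whole-region input from the level per kb removed every call among slow myosin regions (Sol against Quad 0 and Sol against Dia 0 by H3K27ac, and 0 for each of Dia against Quad, Dia against EDL and Sol against Dia by H3K4me2) and added 1 for Sol against Quad by H3K4me2 (Myh7b, -1.05). Because the input was not divided by width, that alternative lowers wider regions more. It cannot decide whether the calls depend on the input, and its moves are included in the counts above. An overlap of 80% gave 0 calls for Sol against Quad and Sol against Dia by H3K27ac and 0 for Dia against Quad by H3K4me2, as fewer regions were matched. Keeping regions with an adjusted p under 0.001 gave 0 calls by H3K4me2 in Dia against Quad, Dia against EDL and Sol against Dia, and lowered the number of regions from 27 to 17 by H3K27ac and from 33 to 16 by H3K4me2. Assignment by gene body and 1 kb upstream, or by microRNA name, gave 30 by H3K27ac. These were 7 in Sol, 7 in Dia, 4 in Quad, 3 each in EDL, Wt and mTg, 2 in Sed and 1 in Ex. Sol thus held no more H3K27ac regions than Dia under this rule. By H3K4me2 it gave 42, with 9 in Sol and 4 to 5 in each other group. Without centring, the H3K4me2 calls of Dia against Quad and of Sol against Dia were 0, and without division by width that of Sol against Dia was 0. Leaving out 1 library gave 0 to 1 call by H3K4me2 for Dia against Quad and for Sol against Dia, and left the other counts within 1.5 times their value. Matching on any overlap, chosen after seeing the data, gave 5 calls for Sol against Dia by H3K27ac (adding the Myh7 start, 1.74, and Myl3, 1.92) and 1 each for Sol against EDL by H3K27ac (Myl3, 2.84) and by H3K4me2 (Myl2 intron 3, 1.08). The cause of the remaining moves was not tested.

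With the replicate number as a block, the limma fit called 2662 regions of the Ex and Sed differential lists against 2653 without it, and 2672 of the mTg and Wt lists with and without it, with 0 slow myosin regions among them. Deviations of libraries with the same number correlated at 0.277 (Ex and Sed) and -0.10 (mTg and Wt). With the pairing crossed for mTg and Wt, chosen after seeing the data, 2672 were called. Centring each library gave 440 and 2390, and leaving out 1 library 1574 (without Ex replicate 2) to 2590 and 2630 to 2645. For pairs of separate lists, differences within each replicate number, added after seeing the data, served as a replicate block. They had the same sign in both numbers for 27 of 30 shared slow myosin regions. The 7 calls (Sol against Quad 1 and Sol against Dia 3 by H3K27ac) could not be lost this way. A call already required libraries that do not overlap, so this block is no check of them. The labels give these lists no pairing beyond the number.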

Other observations

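The H3K27ac profile of Myh7 over the 8 groups, taken as the percentile of its strongest region in each list (77.1 in Sol, 31.9 in Dia and no region elsewhere), was set against those of 16880 genes with a region in at least 1 list. The nearest by Euclidean distance were Frmd5 (distance 8.69; 71.0 in Sol, 29.6 in Dia, 5.69 in EDL), Nrip3 (11.6; 72.8 and 21.2), Rasl10b (19.9; 69.8 and 47.7, with 9.80 in mTg), Cyfip2 (21.3; 60.0 and 19.2) and Mir653 (22.6; 54.8 and 32.6). For Myl2, marked in all groups, the nearest were farther away: Zfr2 (29.7), Gm16523 (33.0), Gm10400 (34.6), Phf11d (35.9) and Atat1 (37.5). Of the 8 groups 5 are quadriceps, so the points are not independent and the nearness is a description.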
